A study of Mus musculus with 6 samples.

Results

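Cell division genes are the genes that copy the DNA and then part the chromosomes. They were taken as 39 named genes in 2 subsets, 19 genes of DNA replication and 20 of mitosis. Of these, 38 had an array feature with that single gene symbol, out of 19938 genes measured in this way, namely all 19 replication genes and 19 mitosis genes. Ccnb1, which codes for cyclin B1, was not analysed here. For genes with several features the brightest on average over the 6 arrays was used.

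The samples were bladders of mouse embryos at stage E14.5. The Klf5-deleted embryos were Klf5 ∆/∆, with both alleles of Klf5 deleted, and the controls were Klf5+/+ShhGfpCre+, with intact Klf5 and a Cre recombinase made where Shh is active, as in the epithelium of the bladder. Each genotype had 3 samples, each a pool of 2 bladders, so that one array averaged over 2 embryos. The labels of the Klf5-deleted group name no Cre, so they do not say whether Klf5 was deleted in all cells or only in some. No strain is given. One label gives urothelium as the tissue and another the whole organ. The RNA was taken to come from the whole organ, as the extraction protocol has it. In such samples fewer dividing cells and less RNA per dividing cell cannot be told apart. The study asked whether the transcription factor Klf5 is needed for the lining of the bladder, called urothelium, to mature.

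A dividing cell copies its DNA in S phase and parts the copies in M phase. The MCM proteins form the helicase that opens the DNA, loaded at origins by Cdc6 and Cdt1, and genes of this phase are switched on by E2F factors as a cell leaves G1. Genes of mitosis come on later, in G2, under the factors Foxm1 and B-Myb together with the MuvB complex, and their products build the spindle, check it and trigger anaphase. In an embryonic bladder the epithelium, the mesenchyme and the young muscle all hold dividing cells. In cultured mouse and human cells Klf5 is known as a factor that can promote division.

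Values are log2 expression values after RMA, on which a difference of 1 is a 2-fold change, and differences are given as Klf5-deleted minus control with standard errors (SE) from limma. Klf5 itself was 10.12, 10.34 and 10.23 in Klf5-deleted bladders and 10.84, 10.63 and 10.97 in controls. Its difference was -0.59 (SE 0.10, adjusted p = 0.0381 by limma), which passed the threshold of 0.05. It did not pass without any 1 array other than control 2, where the adjusted p by limma ran from 0.0847 to 0.156, nor with arrays centred on their median, at 0.061, or all features tested, at 0.102. Over all genes 318 fell and 77 rose past the threshold. With each array centred on its median over all genes, 273 fell and 116 rose, and centred on housekeeping genes 269 fell and 121 rose. Placental transcripts set the arrays apart within both groups. The median of 12 placental markers, each set against its mean over the 6 arrays, was 1.05 on Klf5-deleted 2 and 2.02 on control 2, against -1.85 to -0.22 on the other 4 arrays.

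No cell division gene passed the threshold, in either direction, with 38 tested by limma. Over all genes 1.98% passed, of which 1.59% lower and 0.386% higher in Klf5-deleted bladders. At an unadjusted p under 0.05, limma placed 4 of the 38 genes lower (10.5%) and none higher, against 14.4% of all genes in both directions, 8.08% lower and 6.34% higher. The 95% intervals of the 38 differences lay between -0.44 and 0.38. The SE ranged from 0.06 to 0.13. The Klf5-deleted and control arrays did not overlap for 10 of the 38 genes (26.3%), against 20.5% of all genes. Of the 10, 7 were lower and 3 higher, against 11.8% and 8.67% of all genes. The signs differed between the subsets, with the replication genes on both sides of 0 and the mitosis genes almost all on the lower side. The amounts were small for each gene. The median of the mitosis differences less that of the replication differences was -0.0519, and this was not tested.

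**Figure D1:**
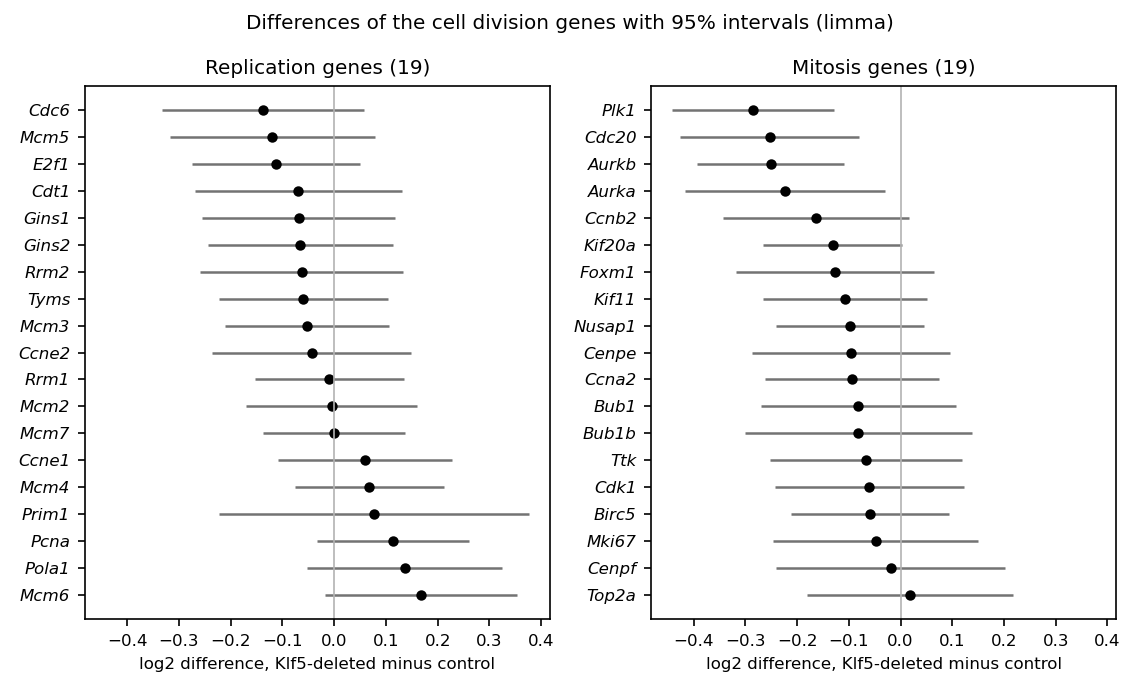
Log2 difference, Klf5-deleted minus control, for each cell division gene (points), with the 95% interval from limma (lines), for 19 replication genes on the left and 19 mitosis genes on the right. The intervals of Plk1, Cdc20, Aurkb and Aurka lie below 0, and all the others include 0.

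Replication genes lay on both sides of 0. Of 19, 12 were lower and 7 higher in Klf5-deleted bladders, from -0.14 for Cdc6 to 0.17 for Mcm6, with a median of -0.0432 against -0.0099 over all genes. The side of 0 on which this median lay depended on the scaling. It was -0.0028 with 10 lower when arrays were centred on their median, against 0.0305 over all genes. Centred on housekeeping genes it was 0.0074 with 9 lower, against 0.0406 over all genes. In both centrings it stayed below the median of all genes. Without Klf5-deleted 3 it was -0.0091 with 12 lower, against -0.0176 over all genes. None passed the threshold and none had an unadjusted p under 0.05 by limma. The 6 subunits of the MCM helicase showed no common direction, with 3 lower and 3 higher.

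Mcm6, an MCM subunit, had the smallest p among the replication genes. It read 11.32, 11.45 and 11.19 in Klf5-deleted bladders and 11.18, 11.13 and 11.16 in controls. All Klf5-deleted arrays lay above all controls, though the lowest of them by little. The difference was 0.17 (SE 0.08, adjusted p = 0.394 by limma). Mcm5, another subunit, read 11.69, 11.49 and 11.76 in Klf5-deleted bladders and 11.77, 11.81 and 11.71 in controls, a difference of -0.12 (SE 0.08, adjusted p = 0.593 by limma). The groups overlapped. Mcm2, a subunit often used as a mark of cells licensed to divide, read 11.64, 11.45 and 11.55 in Klf5-deleted bladders and 11.52, 11.58 and 11.57 in controls. Its difference was -0.01 with a 95% interval of -0.17 to 0.16. Mcm7 differed by 0.00 (SE 0.06), Mcm3 by -0.05 and Mcm4 by 0.07, each with overlapping groups.

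Pcna, the sliding clamp that holds DNA polymerase on its template, was 12.98, 12.99 and 13.08 in Klf5-deleted bladders and 12.87, 12.94 and 12.90 in controls. The groups did not overlap, and the difference was 0.11 (SE 0.06, adjusted p = 0.476 by limma). Pcna has 2 features that list the same transcripts, with differences of 0.11 and 0.12 and SEs of 0.06 each, so copies of the gene may share these probes. Pola1, the catalytic subunit of DNA polymerase alpha, read 9.97, 9.98 and 9.91 in Klf5-deleted bladders and 9.89, 9.67 and 9.90 in controls. The Klf5-deleted arrays lay just above the controls, with a difference of 0.14 (SE 0.08, adjusted p = 0.515 by limma). Prim1, the primase that makes the RNA primers, differed by 0.08 and had the largest SE of the members, 0.13, with a Klf5-deleted array at 10.41 and the other 5 arrays at 9.94 to 10.15.

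Regulators and loaders of replication were mostly on the lower side. E2f1, a factor that switches on the genes of S phase, read 10.36, 10.26 and 10.38 in Klf5-deleted bladders and 10.52, 10.39 and 10.42 in controls. The groups did not overlap but nearly met, and the difference was -0.11 (SE 0.07, adjusted p = 0.537 by limma). Cdc6, which loads the helicase at origins, read 8.76, 9.02 and 8.79 in Klf5-deleted bladders and 9.04, 8.95 and 8.99 in controls. Klf5-deleted 2 lay within the controls, and the difference was -0.14 (SE 0.08, adjusted p = 0.528 by limma). Cdt1, the partner of Cdc6, differed by -0.07, and Gins1 and Gins2, parts of the GINS complex that joins the helicase, by -0.07 each. The cyclin E genes, which drive entry into S phase, differed by 0.06 for Ccne1 and -0.04 for Ccne2. Among the genes that make nucleotides for replication, Rrm1 and Rrm2 of ribonucleotide reductase differed by -0.01 and -0.06, and the thymidylate synthase gene Tyms by -0.06. All of these genes after Cdc6 had overlapping groups.

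The start regions of the 2 replication genes with the smallest p and an entry in the RefSeq promoter table (GRCm38.p6) are shown here, since such regions hold the sites through which S-phase genes are timed. Each runs from 250 bases before to 50 bases after the annotated start, 5′ to 3′ on the strand of the gene. Capitals mark matches to the E2F, CCAAT and CHR motifs spelled out further on. The Mcm6 window is chr1:128359656-128359955 on the minus strand, and the Pcna window is chr2:132253131-132253430 on the minus strand.
Mcm6: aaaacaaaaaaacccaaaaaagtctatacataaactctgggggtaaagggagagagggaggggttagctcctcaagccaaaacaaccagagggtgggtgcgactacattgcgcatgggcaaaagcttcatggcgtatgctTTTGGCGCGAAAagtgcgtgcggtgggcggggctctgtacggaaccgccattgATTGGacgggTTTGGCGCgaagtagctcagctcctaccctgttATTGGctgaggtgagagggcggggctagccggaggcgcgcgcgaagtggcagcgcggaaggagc
Pcna: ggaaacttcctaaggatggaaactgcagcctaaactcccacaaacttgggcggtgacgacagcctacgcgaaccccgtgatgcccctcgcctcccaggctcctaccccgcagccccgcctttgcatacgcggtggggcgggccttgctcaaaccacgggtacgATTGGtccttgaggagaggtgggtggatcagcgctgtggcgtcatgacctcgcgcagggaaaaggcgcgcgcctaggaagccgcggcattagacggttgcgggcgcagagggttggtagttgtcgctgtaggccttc
With bases counted from the start, negative before it, and each match given by its first base as printed, Mcm6 held an E2F site at -47. It held another at -110 that runs into one on the opposite strand at -106, and CCAAT boxes at -57 and -14. Pcna held a CCAAT box at -87 and no match to the E2F or CHR words.

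Mitosis genes lay on the lower side in Klf5-deleted bladders. Of 19, 18 were lower and 1, Top2a, was higher, with a median difference of -0.0951 against -0.0099 over all genes, of which 53.5% were lower. With arrays centred on their median 17 were lower with a median of -0.0547 against 0.0305 over all genes, and centred on housekeeping genes 16 were lower with a median of -0.0445 against 0.0406. A Klf5-deleted array held the lowest reading of the 6 for 16 of the 19 genes (84.2%, against 52.8% of all genes) and the highest for 1. For the replication genes a Klf5-deleted array was the lowest in 11 and the highest in 8. The 4 genes with an unadjusted p under 0.05 by limma were all in the mitosis subset, where they made up 21.1%, against 8.08% of all genes on the lower side. They were the kinase genes Plk1, Aurkb and Aurka and the anaphase activator gene Cdc20.

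Plk1, the Polo kinase that acts at mitotic entry, on the spindle and in cytokinesis, had the largest difference of the members. It read 12.00, 11.90 and 12.05 in Klf5-deleted bladders and 12.31, 12.27 and 12.22 in controls. The groups were clearly apart, with a gap larger than the spread within each of them, and the level was 1.22-fold lower (difference -0.28, SE 0.07, 95% interval -0.44 to -0.13). The adjusted p was 0.0959 by limma, and between 0.0579 and 0.259 in the alternatives. Aurkb, the kinase of the chromosomal passenger complex that corrects faulty spindle attachments, read 11.85, 11.79 and 11.84 in Klf5-deleted bladders and 12.13, 12.04 and 12.06 in controls. All Klf5-deleted arrays lay well below all controls, and the difference was -0.25 (SE 0.06, adjusted p = 0.104 by limma). Aurka, the kinase of the spindle poles, read 10.76, 10.57 and 10.71 in Klf5-deleted bladders and 10.99, 10.93 and 10.79 in controls. The highest Klf5-deleted array came close to the lowest control, and the difference was -0.22 (SE 0.08, adjusted p = 0.277 by limma).

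Cdc20, which activates the anaphase-promoting complex, read 10.78, 10.63 and 10.76 in Klf5-deleted bladders and 11.04, 10.99 and 10.89 in controls. The groups did not overlap, and the difference was -0.25 (SE 0.07, adjusted p = 0.17 by limma). Kif20a, a kinesin of the central spindle needed for cytokinesis, read 11.38, 11.35 and 11.32 in Klf5-deleted bladders and 11.49, 11.47 and 11.48 in controls. Its arrays were tight within both groups, and the difference was -0.13 (SE 0.06, adjusted p = 0.356 by limma). Ccnb2, the gene of cyclin B2, read 12.16, 12.30 and 12.08 in Klf5-deleted bladders and 12.38, 12.36 and 12.28 in controls. Klf5-deleted 2 lay just above the lowest control, and the difference was -0.16 (SE 0.08, adjusted p = 0.393 by limma).

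**Figure D2:**
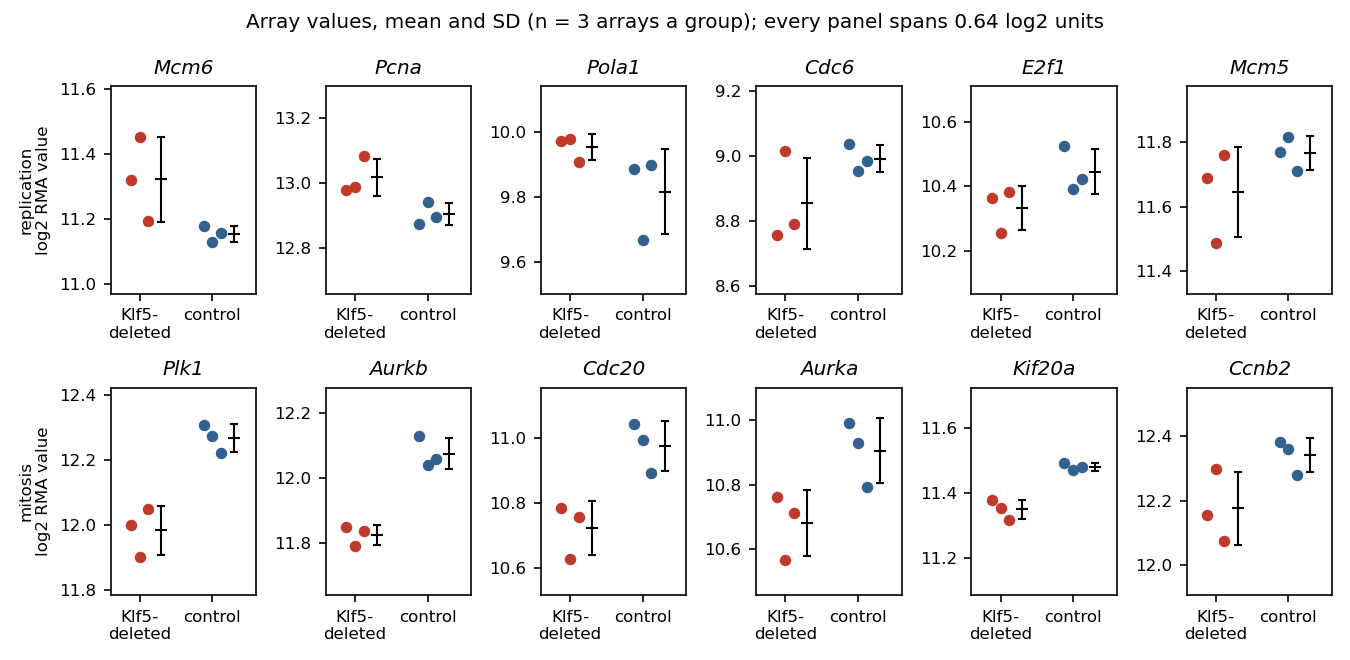
Log2 RMA value on each array for the 6 genes with the smallest p in the replication subset (top row) and in the mitosis subset (bottom row), Klf5-deleted on the left and control on the right of each panel. Points are arrays, the bar is the mean with its SD (n = 3), and every panel has the same height in log2 units. Plk1, Aurkb and Cdc20 show groups that are apart, with differences of -0.28, -0.25 and -0.25.

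Genes that are often read as marks of proliferating cells had small differences. Mki67, whose product coats mitotic chromosomes and is the usual mark of cycling cells in histology, read 12.34, 12.18 and 12.28 in Klf5-deleted bladders and 12.17, 12.38 and 12.40 in controls. The groups overlapped, with control 1 the lowest of all arrays. The difference was -0.05 with a 95% interval of -0.25 to 0.15. Top2a, the topoisomerase that untangles sister chromatids, read 12.04, 12.21 and 11.96 in Klf5-deleted bladders and 11.99, 12.03 and 12.14 in controls. It differed by 0.02 with a 95% interval of -0.18 to 0.22, and a second, dim Top2a feature differed by 0.19 (SE 0.11). Cdk1, the kinase that drives entry into mitosis, read 12.01, 12.19 and 11.99 in Klf5-deleted bladders and 12.20, 12.11 and 12.06 in controls. Its groups overlapped, with a difference of -0.06 (SE 0.08). Its partner Ccna2, the gene of cyclin A2, differed by -0.09 (SE 0.07), also with overlap.

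Foxm1, the transcription factor that acts on many mitosis genes, read 11.01, 10.81 and 10.92 in Klf5-deleted bladders and 11.13, 10.93 and 11.06 in controls. Klf5-deleted 1 lay above control 2, and the difference was -0.13 (SE 0.08, adjusted p = 0.554 by limma). The spindle checkpoint kinases Bub1, Bub1b and Ttk, which hold back anaphase until chromosomes are attached, differed by -0.08, -0.08 and -0.07, with overlap in each. Among the motor and kinetochore genes, Kif11, the kinesin that pushes the spindle poles apart, differed by -0.11. Cenpe, a kinetochore kinesin, differed by -0.10, and the kinetochore gene Cenpf by -0.02. Nusap1, a microtubule-binding protein of the spindle, read 11.67, 11.67 and 11.68 in Klf5-deleted bladders and 11.83, 11.77 and 11.72 in controls, with groups that did not overlap and a difference of -0.10 (SE 0.06). Birc5, the gene of survivin and like Aurkb part of the passenger complex, differed by -0.06.

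The start regions of Plk1 and Cdc20 are shown in the same way, as the 2 mitosis genes with the smallest p that have an entry in the RefSeq promoter table. Plk1 is at chr7:122159185-122159484 on the plus strand and Cdc20 at chr4:118437294-118437593 on the minus strand.
Plk1: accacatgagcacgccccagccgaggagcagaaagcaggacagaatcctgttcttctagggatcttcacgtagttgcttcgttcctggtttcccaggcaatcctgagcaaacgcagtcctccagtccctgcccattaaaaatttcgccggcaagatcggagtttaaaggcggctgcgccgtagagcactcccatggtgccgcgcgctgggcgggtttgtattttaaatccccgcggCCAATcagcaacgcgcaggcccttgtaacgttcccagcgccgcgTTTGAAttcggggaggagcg
Cdc20: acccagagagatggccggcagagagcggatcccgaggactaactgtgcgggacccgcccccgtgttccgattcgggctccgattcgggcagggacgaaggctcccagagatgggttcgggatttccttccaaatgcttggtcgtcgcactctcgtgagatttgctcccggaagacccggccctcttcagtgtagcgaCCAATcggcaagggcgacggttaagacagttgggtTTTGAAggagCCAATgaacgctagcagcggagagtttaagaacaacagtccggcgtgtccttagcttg
Plk1 held a CCAAT box at -14 and a CHR element at 31. Cdc20 held CCAAT boxes at -53 and -8 and a CHR element between them, at -18. Neither held a match to the E2F words.

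The windows of the subsets differed in their shares of E2F and CHR motifs. E2F sites were searched as TTTGGCGC, TTTCGCGC, TTTCCCGC and TTTGCCGC on both strands. CHR elements, through which MuvB acts on mitosis genes, were searched as TTTGAA and TTCGAA, and CCAAT boxes, the site of NF-Y, as CCAAT. Of the replication genes 15 had an entry, with 16 windows because Mcm7 has 2, and of the mitosis genes 15 had an entry, with 1 window each. An E2F site stood in 7 of 16 replication windows (43.8%) and in 1 of 15 mitosis windows (6.67%), that of Cdk1, against 2.99% of the windows of genes tested here and 2.26% of all 32851 promoter windows. In the wider lists described further on it stood in 25% of 48 replication windows and 7.02% of 57 mitosis windows. A shorter E2F search, TTGGCGC or TTCCCGC, of which the first lies within a longer word and the second within another, matched 62.5% of replication and 13.3% of mitosis windows, against 9.28% of windows of genes tested and 6.81% of all windows. A CHR element stood in 2 of 16 replication windows (12.5%) and in 12 of 15 mitosis windows (80%), against 16.5% of windows of genes tested and 19.2% of all windows. In the wider lists it stood in 18.8% of replication and 71.9% of mitosis windows. A CCAAT box and a CHR element stood together in the same 2 and 12 windows, against 6.56% of windows of genes tested and 7.52% of all windows. In the wider lists they stood together in 8.33% of replication and 54.4% of mitosis windows. A CCAAT box, with or without a CHR element, was common in both subsets. It stood in 68.8% of replication and 86.7% of mitosis windows, against 37.4% of windows of genes tested. Those of Nusap1, Cenpe and Birc5 were the 3 mitosis windows with no CHR word.

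Words of the type that KLF factors bind were also counted. The GC box, searched as GGGCGG, stood in 75% of replication and 80% of mitosis windows, against 49.2% of the 19177 windows of all genes tested here and 35.7% of all windows. The CACCC box, searched as CACCC, stood in 68.8% of replication and 40% of mitosis windows, against 60.9% of the windows of genes tested and 57.5% of all windows. In the wider lists the GC box stood in 68.8% of replication and 73.7% of mitosis windows, and the CACCC box in 54.2% and 54.4%. The median GC content was 59.5% in replication windows and 58% in mitosis windows, against 57.3% in the windows of genes tested and 52.7% over all windows, and the part of base composition in these shares was not tested. A match is only a run of letters in this window, and no binding was measured.

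Set side by side on each array, the medians of the mitosis genes did not overlap between genotypes and those of the replication genes did. Each gene was set against its mean over the 6 arrays, and the median was taken over the genes of a subset on each array. The mitosis medians were -0.0207, -0.0609 and -0.0915 on the Klf5-deleted arrays and 0.1079, 0.0477 and 0.0643 on the controls. No Klf5-deleted array reached the lowest control. The replication medians were -0.0167, 0.0266 and -0.0291 on the Klf5-deleted arrays and 0.0317, -0.0197 and 0.0061 on the controls, and here the groups overlapped. With arrays centred on their median or on housekeeping genes the mitosis medians still did not overlap, though Klf5-deleted 1 and control 2 nearly met, at -0.0011 and 0.0028 with the median. The replication medians overlapped when centred on the median. Centred on housekeeping genes they did not, with 0.0219, 0.0122 and 0.0225 on the Klf5-deleted arrays and -0.0229, -0.0398 and 0.0049 on the controls. They were then higher in Klf5-deleted bladders, and the median difference over all genes with this centring was 0.0406.

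The mitosis median minus the replication median was -0.004, -0.0875 and -0.0624 on the Klf5-deleted arrays and 0.0762, 0.0674 and 0.0582 on the controls. The groups did not overlap, and Klf5-deleted 1 lay nearest to the controls. This quantity is taken within an array, so centring the arrays does not move it. Taken from the gene-wise differences instead, the mitosis median less the replication median was -0.0519. Leaving out 1 array gave -0.0946 to -0.0606, and the lowest of these was without control 2. Without control 2 the mitosis genes had a median of -0.1096 with 18 of 19 lower, and the replication genes a median of -0.0151 with 10 of 19 lower. Without Klf5-deleted 2 the medians were -0.0951 with 19 lower and -0.0345 with 10 lower. The members were chosen with results of these arrays known, so no test was made over a subset.

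**Figure D3:**
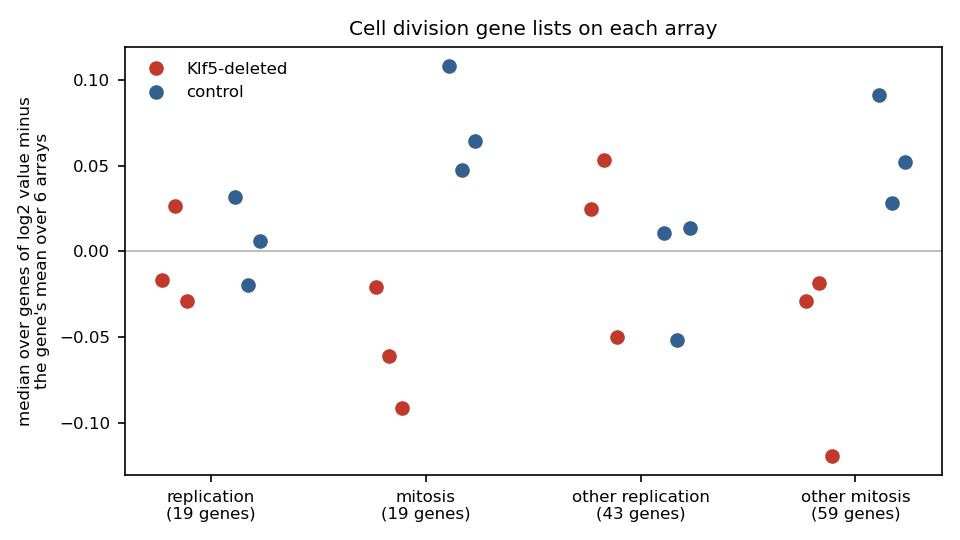
For each array, the median over the genes of a list of the log2 value minus the mean of that gene over the 6 arrays, with Klf5-deleted arrays left of control arrays in each list. The Klf5-deleted arrays lie below all controls for the 19 mitosis members and, without further centring of the arrays, for the 59 other mitosis genes, and the groups overlap for both replication lists.

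A wider list of mitosis genes also lay on the lower side. This list too was chosen with earlier results of these data known, so it is no independent check of the members. It had 59 measured genes that were not members, many of them of the spindle, kinetochore, condensin and cytokinesis. Genes outside these classes, among them Asf1b and Ccnf, were on the list too. Of the 59, 54 were lower and 5 higher in Klf5-deleted bladders, with a median of -0.1148. None passed the threshold by limma, and 11 were lower and none higher at an unadjusted p under 0.05 (18.6%, against 14.4% of all genes). For 20 of the 59 the groups did not overlap (33.9%, against 20.5% of all genes), all with Klf5-deleted lower. Anln, a scaffold of the contractile ring, read 11.65, 11.67 and 11.59 in Klf5-deleted bladders and 11.95, 11.83 and 11.88 in controls, a difference of -0.25 (SE 0.06, adjusted p = 0.12 by limma). Ccnf, the gene of cyclin F, differed by -0.30 (SE 0.09), the histone chaperone gene Asf1b by -0.29 (SE 0.07) and Prc1, which bundles microtubules of the central spindle, by -0.22 (SE 0.07). Their groups did not overlap. With arrays centred on their median 48 of 59 were lower, and centred on housekeeping genes 46.

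On each array the wider mitosis list had medians of -0.029, -0.0184 and -0.119 for the Klf5-deleted group and 0.091, 0.0284 and 0.0521 for controls. Klf5-deleted 3 was the lowest and control 1 the highest array. The groups did not overlap, but they did with arrays centred on their median, where Klf5-deleted 2 was 0.0127 and control 2 -0.0165, and on housekeeping genes, where Klf5-deleted 1 was 0.0096 and control 2 0.0083. Klf5-deleted 3 held the lowest reading in 36 of the 59 genes, and control 1 the highest in 27. Without Klf5-deleted 3 the median of the list was -0.0828 with 49 lower, and without control 1 it was -0.0896 with 52 lower.

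The wider list of replication genes did not lie lower. Among 43 measured genes there were 17 on the lower and 26 on the higher side, the median difference being 0.0311. At an unadjusted p under 0.05 by limma 2 were lower and 3 higher (11.6%, against 14.4% of all genes). None passed the threshold. Tk1, the thymidine kinase that salvages a nucleotide for replication, stood apart from the rest. It read 10.48, 10.48 and 10.49 in Klf5-deleted bladders and 10.79, 10.79 and 10.71 in controls, so that both groups were tight and well apart. Its difference was -0.28 (SE 0.06, adjusted p = 0.0689 by limma). Rpa1, which coats single-stranded DNA, differed by -0.20 (SE 0.08). On the higher side, Slbp, which binds histone mRNA in S phase, differed by 0.18 (SE 0.06) and the origin recognition gene Orc4 by 0.22 (SE 0.08). The other mitosis median minus the other replication median was -0.0538, -0.0719 and -0.0694 on the Klf5-deleted arrays and 0.0801, 0.0799 and 0.0384 on the controls, without overlap.

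**Figure D4:**
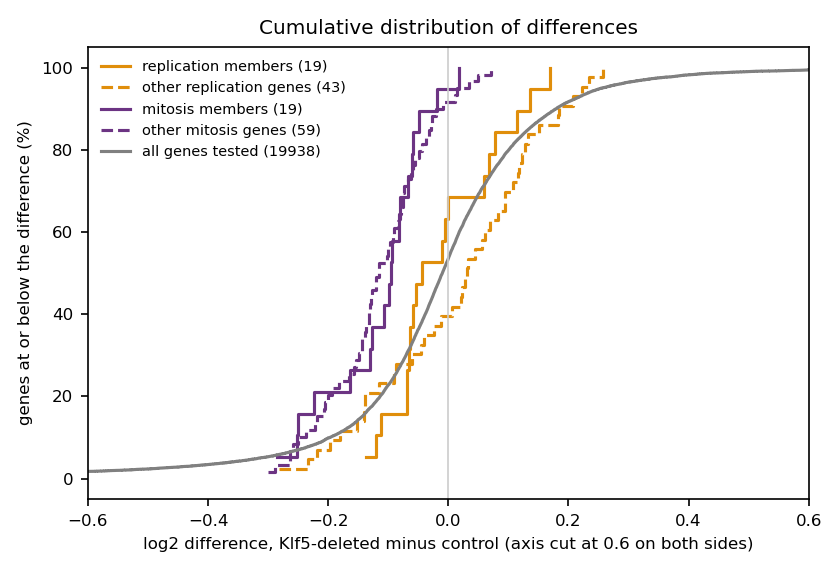
Share of genes in percent (vertical axis) at or below a log2 difference, Klf5-deleted minus control (horizontal axis), for replication and mitosis members (solid), the wider lists (dashed) and all 19938 genes (grey). Both mitosis curves lie left of the curve of all genes over most of their range, with medians of -0.0951 and -0.1148 against -0.0099.

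Genes listed with the cyclin D, RB and E2F regulators went both ways. The list also held B-Myb and MuvB genes, which act on mitosis genes in G2. Of 28 measured genes 14 were lower and 14 higher, none past the threshold by limma. At an unadjusted p under 0.05 by limma 1 was lower and 4 higher (17.9%, against 14.4% of all genes). The lower gene was Mybl2, which codes for B-Myb, at -0.22 (SE 0.08, adjusted p = 0.274 by limma). Its groups did not overlap. The MuvB genes Lin54, Lin37, Lin9 and Lin52 differed by -0.11, -0.06, -0.02 and 0.05, each with overlapping groups. Mycn, a MYC family factor that promotes growth of embryonic cells, read 9.28, 9.27 and 9.11 in Klf5-deleted bladders and 8.91, 8.96 and 8.89 in controls, a difference of 0.30 (SE 0.07, adjusted p = 0.096 by limma). The groups did not overlap. Ccnd2, the gene of cyclin D2, read 12.03, 12.21 and 12.21 in Klf5-deleted bladders and 11.84, 11.93 and 11.88 in controls, a difference of 0.27 (SE 0.07, adjusted p = 0.148 by limma). Tfdp2, a partner of E2F factors, differed by 0.34 (SE 0.10) and E2f3 by 0.23 (SE 0.08).

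Among inhibitors of the cycle 1 gene passed the threshold. Cdkn1c, an imprinted inhibitor of cyclin-dependent kinases that is active in differentiating embryonic tissue, rose in Klf5-deleted bladders. It read 11.81, 11.95 and 11.87 there and 11.46, 11.49 and 11.29 in controls, so that the groups were well apart. Its level was 1.38-fold higher (difference 0.47, SE 0.08, adjusted p = 0.0345 by limma). The call was lost without any 1 array other than control 2, with adjusted p of 0.0854 to 0.119 by limma, and with all features tested, at 0.0896 by limma. Of the 16 measured inhibitors 13 were on the lower side and 3 on the higher, the median difference being -0.1088. At an unadjusted p under 0.05 by limma 3 were lower and 2 higher (31.2%, against 14.4% of all genes). The groups did not overlap for 5 of the 16 (31.2%, against 20.5% of all genes), 3 lower and 2 higher. Pkmyt1, a kinase that holds Cdk1 inactive before mitosis, differed by -0.29 (SE 0.06, adjusted p = 0.0815 by limma), the antiproliferative gene Btg2 by -0.26 (SE 0.09) and Cdkn2c, an inhibitor of the cyclin D kinases, by -0.31 (SE 0.11).

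Genes of the anaphase-promoting complex, which Cdc20 activates, went both ways. Of 16 genes 7 were lower and 9 higher, with none past the threshold by limma. At an unadjusted p under 0.05 by limma 3 were lower and 1 higher (25%, against 14.4% of all genes). The groups did not overlap for 7 of the 16 (43.8%, against 20.5% of all genes), 3 lower and 4 higher. Anapc13 differed by -0.24 (SE 0.06) and Cdc26, another subunit, by 0.31 (SE 0.10). Fzr1, the activator that takes over from Cdc20 as cells leave mitosis, differed by -0.20 (SE 0.08), and Ube2s, the enzyme that extends ubiquitin chains for the complex, by -0.16 (SE 0.06).

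Some of the lists of cell type markers differed between the genotypes. Of 18 urothelial markers, uroplakins and keratins among them, 12 fell past the threshold by limma and none rose. On each array the median of the list, set against gene means, was between -0.89 and -0.56 in Klf5-deleted bladders and between 0.57 and 0.81 in controls. Upk2, a uroplakin of the urothelial surface, read 8.31, 8.37 and 8.23 in Klf5-deleted bladders and 11.80, 11.24 and 11.44 in controls. All 10 smooth muscle markers were lower, with a median difference of -0.2982, and 1, Synpo2, fell past the threshold by limma. Of the 10, 7 had an unadjusted p under 0.05 by limma (70%, against 14.4% of all genes). Groups did not overlap for 7 of them (70%, against 20.5% of all genes). The array median of this list ran from -0.24 to -0.05 in Klf5-deleted bladders and from 0.02 to 0.30 in controls, without overlap. The lists of 9 endothelial, 10 mesenchymal, 10 leukocyte, 10 erythroid, 8 neuronal and glial, 11 skeletal muscle and 12 placental markers had no gene past the threshold, and their array medians overlapped between groups. Several of them still leaned one way. All 11 skeletal muscle markers were higher in Klf5-deleted bladders, with a median difference of 0.70. Of these 5 had an unadjusted p under 0.05 by limma (45.5%, against 14.4% of all genes). Klf5-deleted 3 held the highest reading in 10 of the 11, with an array median of 0.78. The array median was -0.10 on Klf5-deleted 1, 0.15 on control 2 and -0.73 on control 1. Of the endothelial markers 8 of 9 were lower, 4 of them at an unadjusted p under 0.05 by limma (44.4%). Groups did not overlap for 55.6% of the endothelial markers, against 20.5% of all genes. The endothelial median was lowest on Klf5-deleted 3, at -0.20, and highest on control 1, at 0.12, the same arrays as for both mitosis lists. Of the leukocyte markers 9 of 10 were lower. Of 6 mesothelial markers Msln and Krt19 fell and Wt1 rose, and Krt19 is on the urothelial list too. The part of the urothelial, smooth muscle, endothelial and skeletal muscle markers in the difference of the mitosis genes was not tested.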

How the data were processed

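Each of the 6 bladder pools was measured on an array of its own (Affymetrix Mouse Gene 1.0 ST). The authors deposited log2 values made with RMA, per the submitters' processing notes. RMA as usually run makes all arrays share one distribution, so a shift common to most genes would not be seen. The log2 scale is read from the range of values, 3.24 to 14.6. For the RMA version and the genome build of the annotation, the sources used here give nothing.

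Of 35557 features, 21789 had 1 gene symbol in GEO's platform annotation, 1621 had several and 12147 were unnamed here. The brightest feature stood for a gene, which left 19938 genes. They were fitted with limma 3.58.1 in R 4.3.3 (lmFit, eBayes without trend, two-sided, no covariates), and p-values were adjusted by Benjamini-Hochberg over all of them with a threshold of 0.05. Exact permutation of 3 against 3 arrays cannot give a p under 0.1. The code was tested on simulated data with known changes.

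The members and the other gene lists were chosen with earlier results of these data known. Named are all members, Klf5, and from the other cell cycle lists the genes past the threshold and up to 4 with the smallest p. Mybl2 and the MuvB genes Lin54, Lin37, Lin9 and Lin52 are named in addition. From the marker lists only some of the genes past the threshold are named.

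Whether pools shared a litter is not stated, so p-values reflect only pool-to-pool spread, which may be partly technical. The number of arrays limits the precision, and without scanner files no feature could be called above background. The alternatives were a replicate block, leaving out each array, a trended prior, array weights, the mean over a gene's features, centring on the array median or on 10 housekeeping genes, leaving out the dimmest 25% of genes, and testing all features.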

Additional observations from a re-analysis of the deposited data

How the results depend on the processing

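No cell division gene passed the threshold in any of the 14 alternatives, where the lowest adjusted p by limma was 0.0579, for Plk1 with a trended prior. The calls of Klf5 and Cdkn1c were lost with the block (limma adjusted p = 0.137 and 0.106) and with all features tested (0.102 and 0.0896). The sign of the difference held in all 14 for 27 of the 38 genes. Genes past the threshold numbered 395 over all genes, 110 with a replicate block, 218 with all features tested, and 141 (without Klf5-deleted 1) to 349 (without control 2) when 1 array was left out. The replication median of -0.0432 ran from -0.0388 to -0.0091 when 1 array was left out, with the value nearest 0 without Klf5-deleted 3. It was -0.0028 with arrays centred on their median and 0.0074 on housekeeping genes, so its sign depends on the scaling. The median over all genes was 0.0305 and 0.0406 with these centrings, above the replication median in both. The mitosis median of -0.0951 was -0.0547 and -0.0445 with these centrings, which shift all genes by the same amount, and -0.125 to -0.0951 when 1 array was left out. The mitosis median minus the replication median, -0.0519, was -0.0946 to -0.0606 when 1 array was left out. Same-numbered pools deviated from their group means with correlations of 0.00915, 0.0313 and 0.0787 across genes, so the numbers were not taken to pair the samples, and with the replicate block the lowest adjusted p of a member was 0.223 by limma. With 3 arrays a group, no difference of a member could be told from 0 at the threshold on adjusted p.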
